A study of Mus musculus with 6 samples.

Results

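Collagen genes were taken as all genes whose annotated symbol is Col followed by a number, the letter a and a number, and 42 of the 18193 genes represented on the arrays met this rule. Where several probe sets name a gene and no other, the one with the highest mean of its 6 values was used. Of the 42, 28 had a mean at or above 5.57 log2 units, the 40th percentile of all probe sets, and were tested, and 14 lay below it and were not. RNA had been measured on Affymetrix mouse genome arrays in the cochlear nucleus, its ventral division (VCN), where auditory nerve fibres end, and in a pair of nuclei downstream that serve sound localisation, the lateral superior olive (LSO) and, in the trapezoid body, the medial nucleus (MNTB). The mice were untreated males of the strain C57BL/6J, with no allele named. At postnatal day 3 (P3) each array held 1 pool of tissue from 6 mice, and at postnatal day 14 (P14) 1 pool from 3 mice. Tissue was pulled out with forceps from fresh brainstem slices, so the pools hold every cell type of the nuclei, vessels included. The 6 combinations of nucleus and age, VCN, LSO and MNTB at P3 and VCN, LSO and MNTB at P14, have 1 array each.

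Collagens are extracellular proteins whose chains wind around each other into rope-like helices. Fibrillar collagens pack into the fibrils of connective tissue, basement membrane collagens form the sheets under endothelium and around peripheral glia, and transmembrane collagens sit in the plasma membrane with a collagenous part outside the cell. In the brain, fibrillar collagens are known mainly from the meninges and the walls of larger vessels, type IV from the basement membranes of all vessels, and several transmembrane and fibril-associated collagens from neurons.

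Values are log2 expression values, in which 1 unit is a doubling of signal. Array medians lay between 6.27 and 6.31. A control probe set for an unspiked bacterial transcript lay between 2.84 and 4.42, and Col6a5, Col10a1 and Col17a1 did not exceed 4.42 on any array. Of 15 markers listed for the nuclei, 5 were highest in VCN, 9 in MNTB and 1 in LSO at each age. The list thus bears less on the LSO label. Atoh7, a transcription factor of cochlear nucleus neurons, was at 9.46 and 11.07 in VCN at P3 and P14 against 5.92 to 7.93 elsewhere. The glycine transporter gene Slc6a5 was highest in MNTB, at 12.50 and 13.02, and lowest in VCN, at 10.89 and 10.74. With 1 array for each combination, the error of an age difference is its variation among the 3 nuclei, so a p-value speaks of nuclei or ages as repeats and says nothing of the spread among animals. Pool size, or any other technical feature that all arrays of an age share, cannot be told apart from age, and a nucleus by age interaction cannot be tested.

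The first comparison asked which collagen genes differed between P3, before hearing onset, and P14, after it. With limma and Benjamini-Hochberg adjustment over all 13015 genes tested, 14 of the 28 tested collagen genes (50%) passed at 0.05, against a background of 41.1% of all genes. Of the 14, 10 were higher at P14, where 23.4% of all genes were, and 4 were lower, where 17.7% were. The 10 that rose were Col1a1, Col1a2, Col2a1, Col3a1, Col11a2, Col4a1, Col15a1, Col6a2, Col9a1 and Col9a3, and the 4 that fell were Col11a1, Col23a1, Col25a1 and Col26a1. In all 14 the 3 nuclei moved the same way, a property that the test itself favours. In pooled tissue, fewer cells of a type and less RNA per cell cannot be told apart. The median age difference was 0.13 log2 units over the 28 members and 0.03 over all genes tested. The 3 arrays of P3 did not overlap those of P14 for 14 of the 28 members, 10 higher and 4 lower at P14, against 53.8% of all genes tested. The calls depended on scaling for the falls: with each array centred on the median of the tested genes, 9 members were higher and 7 lower, and over all genes 2450 were higher and 3019 lower in place of 3047 and 2304. Without the LSO array of either age 6 members were higher, and without the MNTB array of either age 2 were lower. The counts over all genes dropped as well. Without LSO at P3 and at P14, 2182 and 2198 of all genes were higher. Without MNTB at P3 and at P14, 1318 and 1350 were lower.

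**Figure D1:**
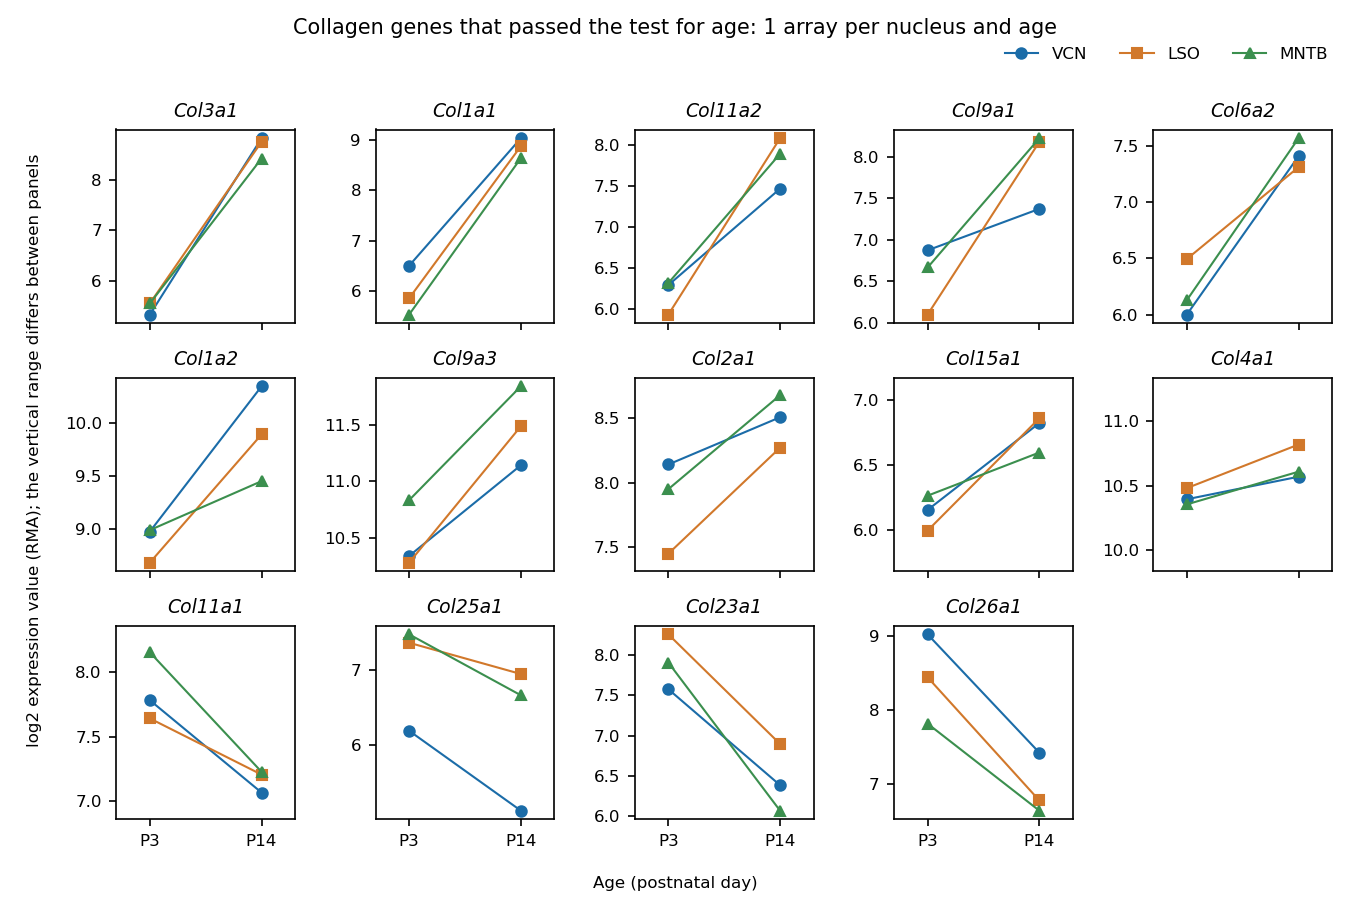
Log2 expression value (vertical axis, its range differing between panels) of the 14 collagen genes past the test for age, at P3 and P14 (horizontal axis), with 1 array per point and a line for each nucleus. All lines rise in the first 10 panels and fall in the last 4, and only for Col25a1 do the ages overlap, since VCN at P3 (6.19) lay below LSO and MNTB at P14.

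Among the fibrillar collagens 9 of 11 genes were tested, of which 5 rose and 1 fell. Of all genes tested 23.4% rose and 17.7% fell, which are also the shares to set beside the classes below. Col3a1, the chain of type III collagen in vessel walls and loose connective tissue, was at 5.35 (VCN), 5.57 (LSO) and 5.57 (MNTB) at P3. At P14 it was at 8.81, 8.74 and 8.41. The ages are far apart and the nuclei of an age lie close together, and Col3a1 rose by 3.16 ± 0.15 log2 units (standard error, 3 nuclei, limma adjusted p = 0.000341), an 8.91-fold difference. Its other probe set, at 2.25 to 3.56, stayed within or below the unspiked control.

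Col1a1 encodes the main chain of type I collagen, the bulk collagen of connective tissue and bone. It was at 6.50 (VCN), 5.86 (LSO) and 5.54 (MNTB) at P3, and at 9.03, 8.87 and 8.63 at P14. It rose by 2.88 ± 0.15 (limma adjusted p = 0.000347, 7.34-fold), and in this probe set VCN was the highest array and MNTB the lowest at both ages. Its second probe set had an age difference of 2.72, with LSO (4.93) and not MNTB (5.86) lowest at P3.

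Col1a2, the partner chain of type I collagen, stood at 8.97, 8.68 and 8.99 in VCN, LSO and MNTB at P3 and at 10.34, 9.89 and 9.45 at P14. The rise of 1.01 ± 0.18 (limma adjusted p = 0.0078) was uneven: 1.37 in VCN, 1.21 in LSO and 0.46 in MNTB. A second probe set of Col1a2, measured at 5.97 to 8.12, had a difference of 1.62. The partner chains of type I collagen thus both rose, and the difference of neither can be set against that of the other since probes differ in response.

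Col11a2 is a chain of type XI collagen, a minor fibrillar collagen known from cartilage and the inner ear that sets fibril width. It was at 6.29 (VCN), 5.93 (LSO) and 6.32 (MNTB) at P3 and at 7.47, 8.08 and 7.89 at P14, a rise of 1.64 ± 0.20 (limma adjusted p = 0.00206). Col2a1, the main fibrillar collagen of cartilage, was at 8.14, 7.45 and 7.95 at P3 and at 8.51, 8.27 and 8.68 at P14, a rise of 0.64 ± 0.13 (limma adjusted p = 0.0120). Its lowest P14 array, LSO, lay only just above the highest P3 array, VCN. The call for Col2a1 was lost without an LSO array (adjusted p = 0.0650 and 0.0655) and without an MNTB array (0.0697 and 0.0707).

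Col11a1, another chain of type XI collagen, moved the opposite way. It was at 7.78 (VCN), 7.64 (LSO) and 8.15 (MNTB) at P3 and at 7.07, 7.21 and 7.23 at P14, and fell by 0.69 ± 0.14 on the log2 scale (limma adjusted p = 0.0107). A second probe set, at 4.19 to 5.38, also had a difference of -0.69. Without an MNTB array the difference was -0.57 and did not pass (adjusted p = 0.0692 and 0.0671). Col11a1 and Col11a2 therefore passed the test in opposite directions.

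The other fibrillar members tested did not pass. Col5a1, a chain of type V collagen that starts type I fibrils, had a difference of -0.36 (adjusted p = 0.0544), which passed with the arrays quantile normalized again (-0.41, 0.0332), with no intensity trend (0.0372) and with centring on the tested genes (-0.45, 0.0237). Taking the median over its 3 probe sets, the difference was -0.15 (0.300). Col5a2, its partner, had 0.06 (0.705) and Col27a1 -0.23 (0.163). Col5a3 and Col24a1 were not tested. Col5a3 lay between 5.42 and 5.66 on the 6 arrays, and Col24a1 lay at or below the unspiked control on all arrays but VCN at P14, where it was at 4.77.

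Promoters are shown for 4 members that passed for age, the rising Col3a1, Col1a2 and Col11a2 and the falling transmembrane gene Col23a1, so that the start regions of genes that moved in either direction can be read side by side. Each line is the 250 bases before the annotated start in RefSeq's GRCm38.p6 table, 5′ to 3′ on the gene's strand, which is the plus strand for all 4. They lie at chr1:45311288-45311537, chr6:4505368-4505617, chr17:34038888-34039137 and chr11:51289670-51289919 in the order shown. Capitals mark the motifs searched on both strands, the TATA box TATAAA, the CCAAT box CCAAT and the GC box GGGCGG.
Col3a1: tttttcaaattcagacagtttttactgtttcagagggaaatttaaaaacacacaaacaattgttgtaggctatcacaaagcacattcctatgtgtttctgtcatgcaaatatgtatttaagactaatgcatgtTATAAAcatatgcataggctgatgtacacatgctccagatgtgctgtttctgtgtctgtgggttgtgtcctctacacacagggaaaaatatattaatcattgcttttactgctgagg
Col1a2: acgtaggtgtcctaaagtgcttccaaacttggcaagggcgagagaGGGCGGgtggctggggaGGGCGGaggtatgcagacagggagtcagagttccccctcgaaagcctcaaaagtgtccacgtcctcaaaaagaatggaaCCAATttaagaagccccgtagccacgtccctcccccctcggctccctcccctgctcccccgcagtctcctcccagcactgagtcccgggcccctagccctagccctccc
Col11a2: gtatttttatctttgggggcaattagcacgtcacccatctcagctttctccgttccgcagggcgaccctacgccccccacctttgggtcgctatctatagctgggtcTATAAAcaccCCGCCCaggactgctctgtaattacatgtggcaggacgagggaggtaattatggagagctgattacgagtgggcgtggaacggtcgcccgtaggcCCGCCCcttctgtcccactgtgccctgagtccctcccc
Col23a1: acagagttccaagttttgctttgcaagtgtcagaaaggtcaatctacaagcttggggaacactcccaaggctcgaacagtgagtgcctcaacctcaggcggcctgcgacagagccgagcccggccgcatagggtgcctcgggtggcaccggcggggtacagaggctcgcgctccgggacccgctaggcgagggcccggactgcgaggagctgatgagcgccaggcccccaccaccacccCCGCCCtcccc
The Col3a1 window held a TATA box starting 117 bases before the annotated start and neither of the other motifs. In the Col1a2 window a CCAAT box started at 109 and GC boxes at 205 and 188 bases before the start. The Col11a2 window held a TATA box at 143 and GC boxes on the opposite strand at 133 and 38, and the Col23a1 window a GC box on the opposite strand at 11. All 42 members matched the RefSeq gene table by gene identifier, and 33 had a promoter entry, with 36 windows in all. Of these 36, 5 held a TATA box, 13 a CCAAT box and 21 a GC box, and over all 32851 windows of the same length the shares were 12.4%, 33.8% and 32.7%. A match is a description of letters in a window, and no data of this study bear on binding there.

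Of the basement membrane collagens of type IV, 3 of 6 genes were tested and 1 passed. Col4a1, which with Col4a2 forms the type IV network of most vessels, was at 10.39 (VCN), 10.48 (LSO) and 10.35 (MNTB) at P3 and at 10.57, 10.82 and 10.61 at P14. It rose by 0.25 ± 0.08 (limma adjusted p = 0.0449, 1.19-fold), a call near the threshold that was lost in each of the 6 fits that left out an array (adjusted p 0.0502 to 0.184), with centring on the tested genes (0.16, 0.162), with no filter (0.0577), quantile normalized again (0.0781), with no intensity trend (0.0875) and with age alone (0.0545). The Col4a1 call thus passed in 5 of 16 alternatives. Its second probe set, at 7.78 to 8.75, had a larger difference of 0.68.

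Col4a2 was at 8.47, 9.0 and 8.66 at P3 and at 9.01, 9.13 and 8.88 at P14, a difference of 0.29 ± 0.12 that did not pass (adjusted p = 0.0975). In RefSeq's table Col4a1 and Col4a2 are neighbours on opposite strands. Col4a5, a type IV chain of kidney and other specialised basement membranes, had 0.07 (0.746), with differences of the same sign in VCN and LSO and the opposite sign in MNTB. Col4a3, Col4a4 and Col4a6 were not tested. Col4a6 lay between 3.77 and 4.99. The other collagens of the basement membrane zone were Col15a1, Col18a1 and Col7a1. Col15a1, a collagen of vessel and muscle basement membranes, was at 6.15, 5.99 and 6.26 in VCN, LSO and MNTB at P3 and at 6.83, 6.86 and 6.60 at P14. It rose by 0.62 ± 0.15 (limma adjusted p = 0.0191), and without an LSO array the difference was 0.50 and did not pass (adjusted p = 0.0993 and 0.102). Col18a1, the source of the fragment endostatin, had 0.04 (0.832), and Col7a1, the anchoring fibril collagen of skin, was not tested, at 5.34 to 5.76.

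Both tested transmembrane collagens fell. Col23a1 was at 7.58 (VCN), 8.26 (LSO) and 7.91 (MNTB) at P3 and at 6.38, 6.90 and 6.07 at P14, a fall of 1.46 ± 0.16 on the log2 scale (limma adjusted p = 0.00143). Its 3 P3 arrays lay above its 3 P14 arrays, and its 2 other probe sets had differences of -1.18 and -1.01.

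Col25a1 is a neuronal collagen whose shed ectodomain is known from amyloid plaques, and it is needed for motor axons to enter muscle. It was at 6.19 (VCN), 7.37 (LSO) and 7.48 (MNTB) at P3 and at 5.13, 6.95 and 6.67 at P14, a fall of 0.76 ± 0.16 on the log2 scale (limma adjusted p = 0.0124). VCN was the lowest array at both ages, by more than 1 log2 unit, and lower at P3 than LSO and MNTB were at P14. The call was lost without an MNTB array (-0.74, adjusted p = 0.0600) and when nucleus was left out of the model (0.300), and the second probe set, at 5.57 to 6.02, had a difference of -0.20. The remaining transmembrane collagens were not tested: Col13a1, a collagen of the neuromuscular synapse, lay between 4.66 and 4.80, and Col17a1, of skin hemidesmosomes, between 3.64 and 4.41.

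**Figure D2:**
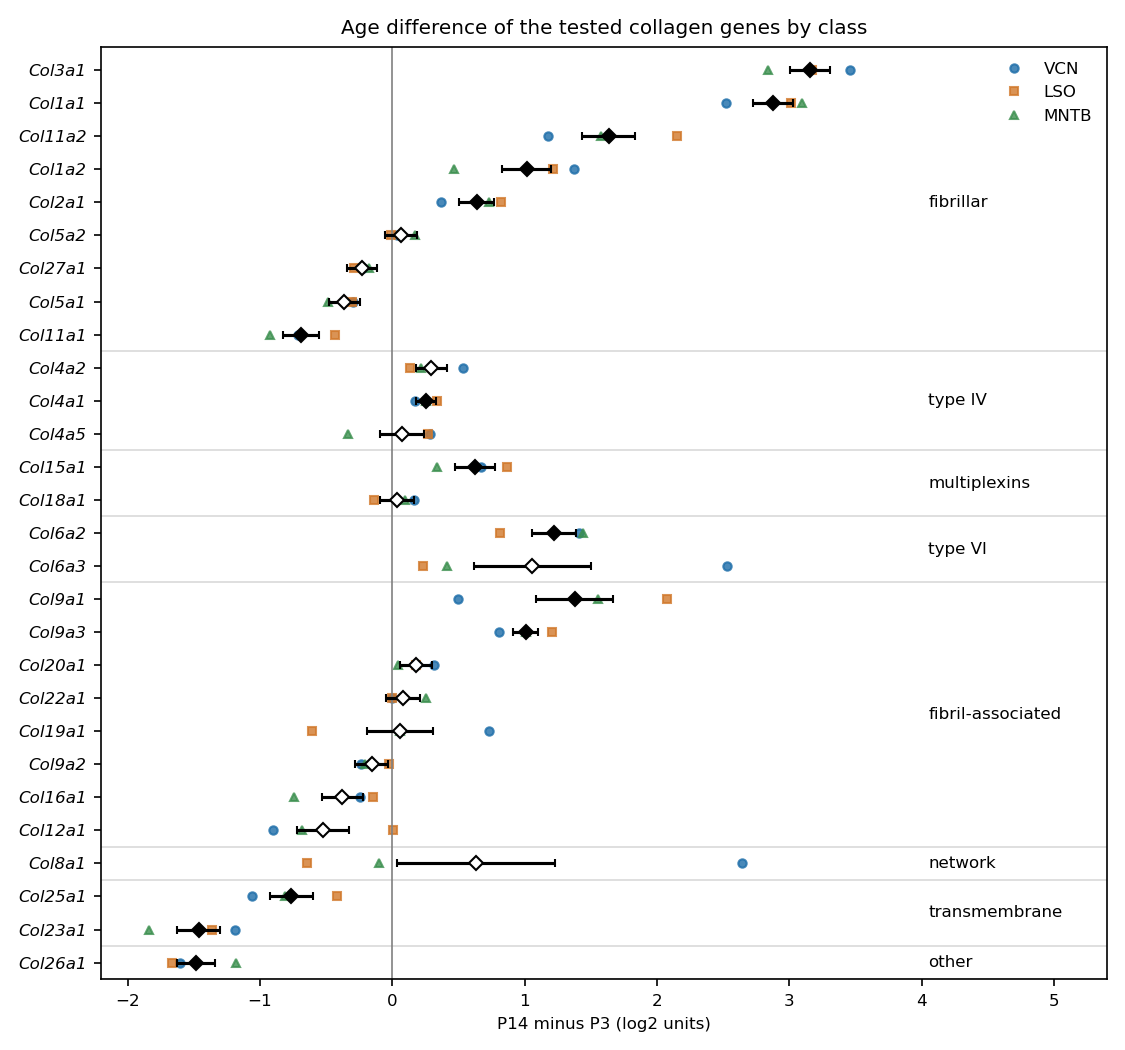
Difference P14 minus P3 (horizontal axis, log2 units) of the 28 tested collagen genes, grouped by class. Diamonds are the mean over the 3 nuclei with the standard error, filled where the gene passed the test, and coloured points are the differences of the single nuclei. The largest rises are those of Col3a1 (3.16) and Col1a1 (2.88), and the falls past 1 log2 unit are those of Col23a1 (-1.46) and Col26a1 (-1.48).

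Type VI collagen forms beaded filaments beside cells of connective tissue, nerve and muscle, and its main form joins the products of Col6a1, Col6a2 and Col6a3. Col6a2 was at 6.00 (VCN), 6.49 (LSO) and 6.13 (MNTB) at P3 and at 7.41, 7.31 and 7.57 at P14, a rise of 1.22 ± 0.16 (limma adjusted p = 0.00285). Its second probe set had a difference of 0.91. Col6a1 had a mean under the filter, at 4.78, 5.08 and 4.57 at P3 and at 6.28, 5.46 and 5.41 at P14. With no filter its difference of 0.91 passed (limma adjusted p = 0.0317), and its lowest P14 array lay above its highest P3 array. Col6a3 was at 4.48, 6.19 and 5.08 at P3 and at 7.01, 6.42 and 5.49 at P14. Its mean difference of 1.06 ± 0.44 did not pass (adjusted p = 0.106), since VCN differed by 2.53, LSO by 0.23 and MNTB by 0.41. Col6a4 and Col6a5 were not tested and lay between 3.21 and 4.76.

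Among the fibril-associated collagens 8 of 9 genes measured were tested, and 2 rose. Col9a3, a chain of type IX collagen, which coats type II fibrils in cartilage, was at 10.34 (VCN), 10.28 (LSO) and 10.83 (MNTB) at P3 and at 11.14, 11.49 and 11.84 at P14, a rise of 1.01 ± 0.10 (limma adjusted p = 0.000949). A second probe set of Col9a3 had a difference of 1.22, and another, at 2.33 to 2.55, did not exceed the unspiked control. Col9a1, another type IX chain, was at 6.88, 6.10 and 6.67 at P3 and at 7.37, 8.18 and 8.22 at P14. Its rise of 1.38 ± 0.29 (limma adjusted p = 0.0128) was smallest in VCN, at 0.50, against 2.08 in LSO and 1.55 in MNTB. The call for Col9a1 was lost without an LSO array (1.03, adjusted p = 0.0513 and 0.0509) and without an MNTB array (0.0580 and 0.0572).

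Col9a2, the remaining type IX chain, had a difference of -0.15 that did not pass (adjusted p = 0.362). Its arrays lay between 6.15 and 6.31 at P3 and between 6.01 and 6.13 at P14, so its ages did not overlap although the difference was small. Of the others, Col12a1, which lies on type I fibrils, had -0.52 (0.0789), Col16a1 -0.38 (0.0991), Col20a1 0.18 (0.279), Col22a1 0.08 (0.635) and Col19a1, a collagen made by some neurons that takes part in synapse formation, 0.06 (0.872). Col12a1 passed without an LSO array (-0.79, adjusted p = 0.0281 and 0.0279) and with centring on the tested genes (-0.62, 0.0471), as did Col16a1 with that centring (-0.47, 0.0454). Col20a1 passed when the median of its 4 probe sets was used (0.55, 0.0157). Col14a1 was not tested, at 4.38 to 4.60.

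Col26a1 encodes a secreted collagen first found in testis and ovary. It was at 9.03 (VCN), 8.44 (LSO) and 7.82 (MNTB) at P3 and at 7.42, 6.78 and 6.64 at P14. It fell by 1.48 ± 0.14 on the log2 scale (limma adjusted p = 0.000951), and at both ages VCN was highest and MNTB lowest. Its second probe set, at 3.40 to 3.70, stayed within the unspiked control and had a difference of 0.03, and with the median of both the fall was -0.73. Of the 14 calls for age, those of Col1a1, Col1a2, Col3a1, Col6a2, Col9a3, Col11a2, Col23a1 and Col26a1 passed in every alternative fit in which the gene was tested, which for Col3a1 leaves out the median of its probe sets.

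The second comparison asked which collagen genes differed between nuclei, with the ages as the only repeat. Col27a1, a fibrillar collagen of developing cartilage, was the only member to pass. It was at 8.39 (VCN), 7.01 (LSO) and 6.71 (MNTB) at P3 and at 8.17, 6.73 and 6.53 at P14. VCN was thus more than 1 log2 unit above both other nuclei at both ages. MNTB minus VCN was -1.67 ± 0.14 (limma adjusted p = 0.0152) and VCN minus LSO 1.41 ± 0.14 (0.0257). Its second probe set, at 5.36 to 7.04, had differences of -1.32 and 1.14. Both calls passed only in the 2 fits without a VCN array among the 6 that left out an array, with adjusted p of up to 0.124 and 0.277 in the others. In a fit without a VCN array the 1 left is assumed to vary like the arrays of the other nuclei, which alone give the spread, and the same holds for each such fit below.

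For MNTB minus VCN 1 of 28 members passed, against 0.638% of all genes, and for VCN minus LSO 1 of 28, against 0.369%. For MNTB minus LSO 0 of 28 passed in limma, against 0.161%, and 4 had an unadjusted p under 0.05. For MNTB minus VCN and for VCN minus LSO 10 members had an unadjusted p under 0.05 in each. The share of all genes under that unadjusted threshold is not given here. The unadjusted counts therefore cannot be set against the shares above, which are of adjusted calls. A single member past the test is too few to read against the adjusted shares.

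Several members differed by more than 1 log2 unit between nuclei without passing. Col25a1, described above, had 1.41 ± 0.20 for MNTB minus VCN (adjusted p = 0.0536) and -1.50 for VCN minus LSO (0.0592). The first passed when arrays were centred on their median (0.0412), on the median of the tested genes (0.0444) or quantile normalized again (0.0378), and the second when centred on their median (0.0475) or quantile normalized again (0.0454). In the second probe set of Col25a1 these differences were 0.23 and -0.24. Col19a1 was at 6.15 (VCN), 8.08 (LSO) and 7.83 (MNTB) at P3 and at 6.88, 7.47 and 7.88 at P14. It was lowest in VCN at both ages, as in its other probe sets. MNTB minus VCN was 1.34 (adjusted p = 0.201). Without VCN at P14, which leaves 1 VCN array, it was 1.84, and VCN minus LSO was -1.76. Col12a1 was at 6.34, 6.62 and 7.55 at P3 and at 5.44, 6.63 and 6.87 at P14, with MNTB the highest and VCN the lowest array at both ages, and MNTB minus VCN was 1.32 (0.112).

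Col8a1 encodes a short chain network collagen known from vessel endothelium and the cornea. It was at 4.40 (VCN), 9.02 (LSO) and 6.67 (MNTB) at P3 and at 7.05, 8.37 and 6.57 at P14. LSO was highest at both ages, as in both other probe sets of the gene. The VCN value at P3 lay within the unspiked control, so with values raised to 4.47, the 25th percentile of all values, LSO was at least 23.3-fold above VCN at P3. VCN at P14 was at least 5.95-fold above VCN at P3 on the same basis, while the differences by age were -0.65 in LSO and -0.10 in MNTB. Neither the age difference (0.63 ± 0.60, adjusted p = 0.435) nor a difference between nuclei passed with all 6 arrays. Without VCN at P14, where the 1 VCN array left is that within the unspiked control, and with values raised to 4.47, VCN minus LSO was -4.41 (limma adjusted p = 0.0013), MNTB minus VCN 2.34 (0.0113) and MNTB minus LSO -2.07 (0.00898). The differences from VCN are bounds. Both folds are those of the main probe set, the one with the highest mean. In the other probe sets VCN was at 6.37 and 4.18 at P3 and at 6.56 and 4.93 at P14. LSO was at 7.37 and 6.99 in them at P3. Their age differences over the 3 nuclei were 0.10 and 0.06. The other short chain collagens, Col8a2 and Col10a1, were not tested and lay between 3.14 and 4.66.

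**Figure D3:**
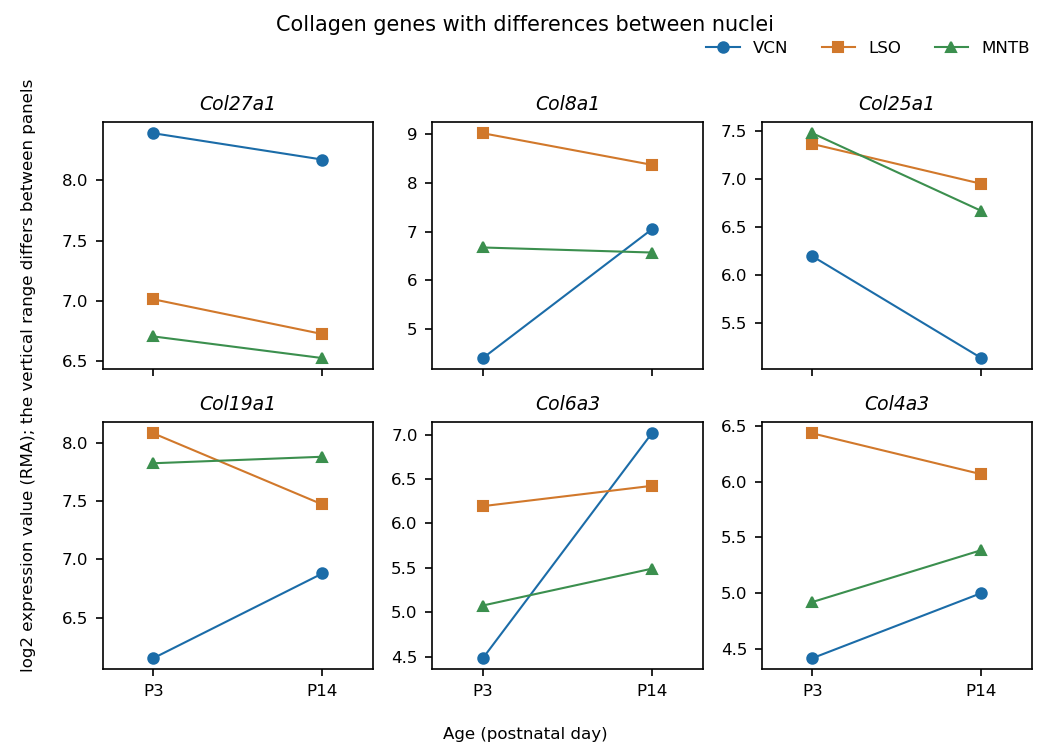
Log2 expression value (vertical axis, its range differing between panels) at P3 and P14 (horizontal axis) of 6 collagen genes with differences between nuclei, 1 array per point and a line for each nucleus. Col27a1 stands apart in VCN at both ages, Col8a1 and Col4a3 are highest in LSO at both ages, and all genes shown but Col27a1 are lowest in VCN at P3.

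Col4a3 and Col4a4, neighbouring genes whose chains join with that of Col4a5, had no test. Col4a3 was at 4.41 (VCN), 6.44 (LSO) and 4.92 (MNTB) at P3 and at 5.0, 6.07 and 5.39 at P14, highest in LSO at both ages. Its second probe set, at 3.26 to 4.11, stayed within the unspiked control and carries no order. Col4a4 was at 5.95 in LSO at P3 against 4.84 in VCN and in MNTB, and at 5.04 on all 3 arrays of P14. Col6a3, at 6.19 in LSO against 4.48 and 5.08 at P3, had the same order at that age. Without VCN at P14, VCN minus LSO was -1.67 for Col6a3, and without VCN at P3 its MNTB minus VCN was -1.57. Each rests on 1 VCN array, at 4.48 at P3 and at 7.01 at P14. The first thus puts VCN below LSO and the second puts it above MNTB. Of the 25 markers of meninges and fibroblasts 12 were highest in LSO at P3, 8 in MNTB and 5 in VCN, and at P14 the counts were 9, 4 and 12. Lum, Slc47a1 and Foxc2 (highest in LSO at P3) and Ogn and Twist1 (highest in VCN) lay under 4.42 on every P3 array. Values that low carry no order. Among those highest in LSO at P3 were Crabp2 (10.54 against 8.62 in VCN and 8.11 in MNTB), Fmod (7.72 against 5.68 and 5.55), Aldh1a2 (5.31 against 3.39 and 3.76) and Ptgds (7.61 against 5.77 and 6.32), which were chosen after their values were seen. Igf2, also highest in LSO, was nearly level at 9.33 to 9.36. Of those highest elsewhere at P3, Serping1 was at 7.39 in VCN against 6.75 in LSO. Pdgfra was at 10.31 and Bgn at 9.42 in MNTB against 10.03 and 9.25 in LSO. At P14 Col8a1 and Col4a3 were still highest in LSO. Fmod was too (7.43 against 7.04 in VCN and 6.58 in MNTB), while Crabp2, Aldh1a2 and Ptgds were highest in VCN. Their part in the levels of Col8a1, Col4a3, Col4a4 and Col6a3 was not tested.

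Markers of other tissue moved with age beside the fibrillar collagens. Of 25 fibroblast and meningeal markers 15 were tested, and 7 rose (Dcn, Slc6a13, Vtn, Igf2, Mgp, Bgn and Ptgds) and 2 fell (Pdgfra and Nnat). Over all genes tested 23.4% rose and 17.7% fell, shares to set beside each marker list. Mgp, a matrix protein of fibroblasts and vessel walls, was at 6.03 to 6.53 at P3 and at 9.88 to 10.13 at P14, a rise of 3.68 (limma adjusted p = 0.000224). Summed over the whole list, the signal was 13.72 to 13.78 (log2 of the sum) on the P3 arrays and 13.10 to 13.61 on the P14 arrays, with Nnat, also a neuronal gene, at 13.10 to 13.31 on the P3 arrays and with an age difference of -1.52. Slc47a1, Foxc2 and Twist1 did not exceed the unspiked control on any array. Ptgds, a meningeal and choroid plexus enzyme, was at 11.45 (VCN), 9.82 (LSO) and 7.46 (MNTB) at P14. Islr, a fibroblast gene that was not tested, was at 7.26, 5.67 and 5.14. Col1a1, Col1a2, Col3a1 and Col6a3 also had this order at P14, as noticed after their values were seen. So did Col6a1, Col5a1, Col27a1 and the falling Col26a1. Col1a1, Col5a1, Col27a1 and Col26a1 had it at P3 as well. Of the other rising collagens, Col2a1, Col6a2, Col9a1 and Col9a3 were highest in MNTB at P14, and Col4a1, Col11a2 and Col15a1 in LSO. Other markers had other orders at P14: Mgp, Lum, Bgn and Foxd1 were lowest in VCN, and Dcn was highest in LSO. Of 11 choroid plexus markers 8 were highest in VCN at P14 and 5 at P3. Ttr was at 12.58 in VCN at P14 against 6.61 to 6.93 on the other arrays, while Otx2 was at 9.34 in VCN at P3 and at 6.52 at P14, and Kcnj13 was at 5.59 and 5.39. The choroid plexus markers tested, Ttr and Calml4, did not pass for age (adjusted p = 0.178 and 0.205). Their summed signal was 8.37 to 10.05 at P3 and 8.47 to 12.73 at P14. The part of fibroblast and choroid plexus markers in the collagen differences was not tested.

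Of 15 endothelial markers, all tested, 12 rose and the others had differences of 0.20 to 0.36, and their signal, summed and then in log2, was 12.36 to 12.61 on the P3 arrays and 13.12 to 13.27 on the P14 arrays. Of 12 tested markers of pericytes and smooth muscle 6 rose and 1 fell, with sums of 11.94 to 12.18 and 12.62 to 12.71. Type II, IX and XI collagens are known from cartilage, and of the cartilage and bone markers 11 had a probe set and 6 were tested. Chad, Cnmd, Ucma and Acan rose, Alpl fell, and the summed signal was 9.34 to 9.61 at P3 and 10.21 to 10.66 at P14. Of these Acan, the core protein of perineuronal nets in brain as well as of cartilage, was at 7.21 to 8.08 at P3 and at 8.46 to 9.37 at P14. Matn3 and Epyc did not exceed the unspiked control on any array and Comp lay at 4.69 to 4.92. Sp7, which was not tested, lay at 3.68 to 4.27 at P3, within the unspiked control, and at 6.50 to 7.22 at P14. The part of the vascular and cartilage markers in the differences of Col4a1, Col15a1, Col2a1, Col9a1, Col9a3 and Col11a2 was not tested. Of 10 Schwann cell markers, which include genes shared with oligodendrocytes, 6 were tested, 4 rose and 1 fell. All 7 oligodendrocyte markers rose, as did 4 of 5 tested microglial and both tested red blood cell markers, and of 8 astrocyte markers 5 rose and 2 fell. Of 8 neuronal markers 4 fell and 1 rose (median -0.28), with a summed signal of 15.13 to 15.44 at P3 and 15.03 to 15.30 at P14. The part of these lists in the rises and falls of collagen genes, that of the neuronal gene Col25a1 included, was not tested.

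Collagen chains are hydroxylated and folded in the endoplasmic reticulum, trimmed and cross-linked outside the cell, bound by small proteoglycans, read by receptors and cut by metalloproteinases. Of 21 genes of folding, hydroxylation and export tested, 9 rose and 5 fell, with a median difference of 0.14 log2 units. The shares over all genes tested, 23.4% rising and 17.7% falling, stand beside this list and each list below. Plod1, a lysyl hydroxylase, was at 7.54 to 7.83 at P3 and at 9.30 to 9.40 at P14, a rise of 1.67 ± 0.11 (limma adjusted p = 0.000425). Tmem38b, an ion channel of the endoplasmic reticulum needed for collagen assembly, and the prolyl isomerase gene Fkbp14 each rose by 1.01, and the prolyl hydroxylase subunit gene P4ha1 by 0.96. The lowest difference over the alternative fits was 0.99 for Plod1, 0.74 for Tmem38b, 0.56 for Fkbp14 and 0.85 for P4ha1. Serpinh1, the collagen chaperone, had 0.03 (adjusted p = 0.842). When 1 array was left out, 0 to 2 genes of this list fell in place of 5.

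Of 11 genes of processing and cross-linking tested, 4 rose and 1 fell (median 0.15). The lysyl oxidase gene Loxl1 was at 4.97 to 5.68 at P3 and at 7.02 to 7.42 at P14, a rise of 1.83 ± 0.14 (limma adjusted p = 0.000534). Pcolce, which enhances the trimming of fibrillar procollagens, rose by 1.43, and the protease gene Tll2 by 1.27. The protease genes Bmp1 and Tll1 had differences of 0.12 and -0.44 that did not pass. Pxdn, which cross-links type IV collagen, fell by 1.02 on the log2 scale (adjusted p = 0.00425). Of 5 fibril-binding proteoglycans tested, 3 rose, and Fmod and Podn had differences of 0.70 and -0.21 that did not pass. Dcn (decorin) rose by 1.87 (adjusted p = 0.00318), Prelp by 0.85 and Bgn by 0.44, and without an MNTB array the list had 1 rise. Dcn and Bgn are also among the fibroblast markers.

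Of 12 basement membrane partners tested, 4 rose and 2 fell (median 0.07), where 23.4% of all genes tested rose and 17.7% fell. Agrn (agrin), a proteoglycan of synapses and vessels, was at 10.89 to 10.99 at P3 and at 9.78 to 10.07 at P14, a fall of 1.03 on the log2 scale (limma adjusted p = 0.000791). Nid2 (nidogen 2), which links laminin to type IV collagen, rose by 0.68 and the laminin chain gene Lamc1 by 0.52, and Lama3 fell by 0.48 (adjusted p = 0.0412), a call that was lost in 9 of 16 alternatives, all 6 fits without an array among them. All 4 rises were lost without an LSO or without an MNTB array, and with centring on the tested genes the list had 2. Of 7 collagen receptors tested 5 rose (median 0.61), and Mrc2 and Adgrg1 had differences of -0.10 and -0.26 that did not pass. The integrin gene Itga1 rose by 0.90, the receptor tyrosine kinase genes Ddr1 and Ddr2 by 0.69 and 0.65, and Lair1, an inhibitory receptor of immune cells, by 0.61. Without an LSO array the list had 2 rises. Of 8 genes of collagen breakdown and its inhibitors tested, 1 rose and 2 fell (median -0.35): the membrane metalloproteinase gene Mmp14 fell by 0.82 (adjusted p = 0.0104), the inhibitor gene Timp3 fell by 0.59 and Timp4 rose by 0.55. With centring on the tested genes the list had 4 falls.

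**Figure D4:**
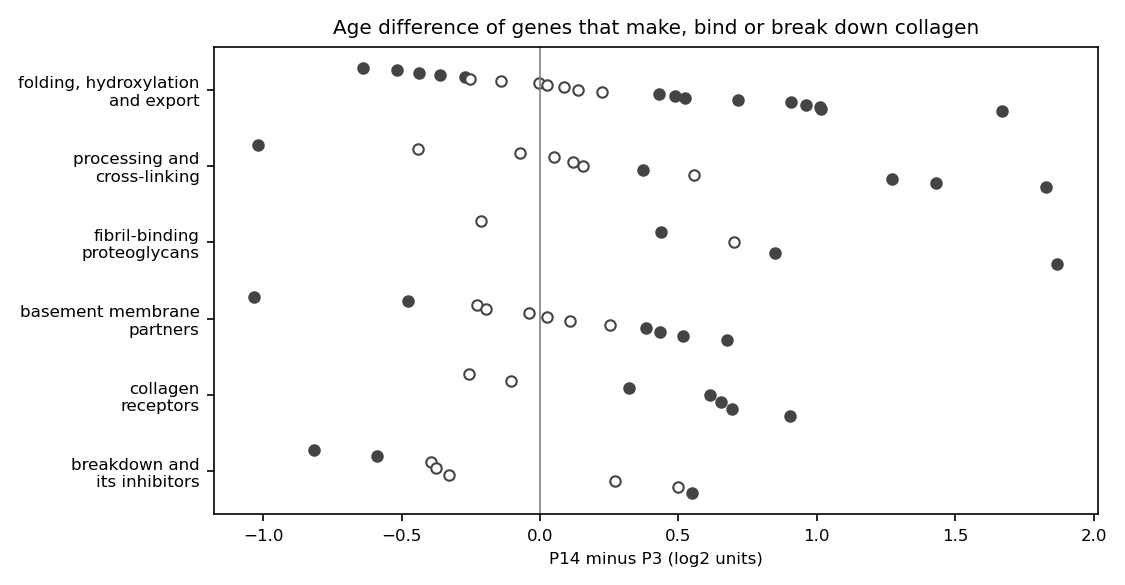
Difference P14 minus P3 (horizontal axis, log2 units) of the tested genes of 6 lists around collagen, 1 point per gene, filled where the gene passed the limma test. Collagen receptors have 5 filled points, all above 0, and breakdown and its inhibitors have 2 filled points below 0 and 1 above.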

How the data were processed

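The authors deposited log2 expression values per probe set, made with RMA (version not given in the sources used here) per the submitters' processing notes, a method that corrects background, equalises the distributions of the arrays and combines the probes of a set. Per the labels' protocols, the RNA was treated with DNase and amplified with an Ovation Pico system before hybridisation. The values ran from 1.84 to 14.37. The number of arrays limits precision, and no batch was known to test.

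Of 45101 probe sets, 34945 named 1 gene through the platform annotation, 932 several and 9160 none, and 64 were controls. limma 3.58.1 (R 4.3.3) was run on the 6 arrays with additive terms for age and nucleus, moderated variances with an intensity trend, 2 residual and 4.0 prior degrees of freedom, and two-sided tests adjusted by Benjamini-Hochberg over 13015 genes at 0.05. The steps were tested on simulated data. Members are named by rule: all may be named, with the value on every array for those past a test, the 5 highest means and differences of 1 log2 unit or more, and per list up to 4 genes past the test. Other genes were named after their values were seen.

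The members and the lists of pathway and marker genes were chosen with earlier results of these data known. The alternatives were no filter or the 25th percentile, probe sets without names ending in _x_at, the median over the probe sets of a gene, centring on the array median, quantile normalization again, no intensity trend, values floored at the 25th percentile (4.47), age alone, and each array left out in turn. Centring on the median of the tested genes was added after seeing the data. The files name no genome build, so coordinates are given only for RefSeq promoter windows.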

Additional observations from a re-analysis of the deposited data

How the results depend on the processing

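No collagen call reversed its direction under any alternative. With each of the 6 arrays left out in turn, the collagen genes higher at P14 numbered 6 to 9 in place of 10 and those lower 2 to 5 in place of 4. The lowest counts came without an LSO array of either age (6 higher) and without an MNTB array of either age (2 lower). Over the same fits 0 to 1 genes were lower in MNTB than in LSO in place of 0, 0 to 2 higher in MNTB than in VCN in place of 0, 0 to 2 lower in MNTB than in VCN in place of 1, 0 to 1 higher in VCN than in LSO in place of 1, and 0 to 3 lower in VCN than in LSO in place of 0. Leaving out an array removes the age difference of its nucleus, so fewer samples carry the fit, for all genes as for collagen genes. Over all genes tested, 2182 and 2198 were higher at P14 without LSO at P3 and at P14, in place of 3047. Without MNTB at P3 and at P14, 1318 and 1350 were lower, in place of 2304.

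With centring on the median of the tested genes, 7 collagen genes were lower at P14 in place of 4 and 1 was higher in MNTB than in VCN in place of 0. With centring on the array median and with quantile normalization again, 1 was higher in MNTB than in VCN and 1 lower in VCN than in LSO, each in place of 0 and each Col25a1. The cause of these shifts was not tested. Over all genes the median age difference was 0.03 log2 units as deposited, 0.05, -0.06 and -0.00050 under the 2 centrings and the repeated quantile normalization.

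Over the age differences of the tested collagen genes and the named pathway genes and the differences between nuclei that passed as deposited, 499 of the values from other settings kept their side of the threshold, 18 lost a call and 6 gained one, and with an array left out these were 252, 64 and 2. Apart from these, collagen genes gained 5 calls between nuclei from other settings and 11 with an array left out. The fit with nucleus as a term already compares the ages within nuclei, and without that term 9 collagen genes were higher and 3 lower at P14. Values of members under 4.42 carry no order, which limits, among others, Col6a5, Col10a1, Col17a1, most arrays of Col24a1 and Col8a2, and the VCN arrays of Col8a1, Col4a3 and Col4a6 at P3.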

Other observations

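In RefSeq's table several collagen genes lie next to each other, and neighbours did not share an age difference in each case. Col3a1, which rose by 3.16 log2 units, lies next to Col5a2, at 0.06, whose second probe set had 0.46. Col9a1, which rose by 1.38, lies next to Col19a1, at 0.06. Col6a2, which rose by 1.22, lies next to Col6a1, at 0.91, and Col4a1, at 0.25, next to Col4a2, at 0.29. The differences of single nuclei had medians over the 28 tested members of 0.30 in VCN, 0.07 in LSO and 0.13 in MNTB, and whether they differ was not tested. Col6a3 differed by 2.53 in VCN against 0.23 in LSO and 0.41 in MNTB, and Col6a1 by 1.5 against 0.37 and 0.84. Col8a1 differed by at least 2.57 in VCN (with VCN at P3 raised to 4.47) against -0.65 and -0.10. That holds for its main probe set, and in its others VCN went from 6.37 to 6.56 and from 4.18 to 4.93.

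Exactly equal values on 2 or more arrays occurred for 12962 of the 45101 probe sets (28.7%) and for 1898 of the 13015 genes tested (14.6%). Among the collagen genes 11 of 42 had such a repeat, among them Col4a4, whose 3 arrays of P14 all read 5.04, and Col18a1, Col20a1, Col22a1 and Col5a2 among the tested. None of the 14 genes that passed for age in limma did. Whether repeats change the spread that the test uses was not tested.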
